A study of Homo sapiens with 9 samples.

Results

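The E proteins, their ID inhibitors and the TAL1/LYL1 complex genes were followed after knockdown of the homeobox gene TLX1 in ALL-SIL, an established cell line of T-cell acute lymphoblastic leukaemia (T-ALL). The genes were chosen by name: the E protein genes TCF3, TCF4 and TCF12, the inhibitor genes ID1, ID2 and ID3, the partner genes TAL1 and LYL1, and the cofactor genes LMO2 and LDB1. These are 10 of the 58096 gene IDs in the files. Of the 10, 7 were among the 16072 genes with enough reads to be tested; TCF4, TAL1 and LMO2 were not. Cells were electroporated with the TLX1 siRNA s46, with the TLX1 siRNA s47, or with a scrambled siRNA that targets no gene. RNA from all 3 groups was taken at 24 h, with 3 libraries a group and 9 in all. The scrambled siRNA was used at 400 nM per the labels, which state no dose for s46 or s47. All libraries come from 1 cell line, and the labels do not say that replicates are separate cultures. The p-values therefore rest on library-to-library spread that may be technical.

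E proteins are basic helix-loop-helix transcription factors that bind the DNA word CANNTG, called an E box, as homodimers or with a tissue-restricted partner. ID proteins have the helix-loop-helix but no basic region, so a dimer of an E protein with an ID protein does not bind DNA. TAL1 and LYL1 are such tissue-restricted partners, and with an E protein they can join LMO2 and LDB1 in one complex on DNA. E proteins drive early T-cell development, and in T-ALL they can be held in check by ectopic TAL1, LYL1 or LMO proteins. TLX1-rearranged leukaemia is usually set apart from the TAL1 and LYL1 groups of T-ALL.

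Depth was 21134650 to 33393740 sense gene reads a library, and levels are given as CPM, gene counts scaled to library size with TMM factors. TLX1 itself had 63.7, 87.3 and 78.7 CPM with s46 and 63.5, 73.7 and 75.0 CPM with s47, against 198, 188 and 171 CPM with the scrambled siRNA (libraries 1, 2 and 3 in each group). Its log2 fold change was -1.34 ± 0.11 (SE; edgeR adjusted p = 0.000394), so part of the TLX1 RNA was still present in every knockdown library. The T-lineage markers CD3D, CD3E, CD3G, CD5, CD7, CD1A, CD1B and LCK were all detected, and summed to 1361 to 1503 CPM in TLX1 siRNA libraries and 1240 to 1399 CPM in scrambled libraries. The 6 myeloid markers summed to 0.0763 to 0.524 CPM in TLX1 siRNA libraries and 0.257 to 0.627 CPM in scrambled libraries, with CD33 at 0. The 6 erythroid markers summed to 0.0636 to 0.200 CPM in TLX1 siRNA libraries and 0.101 to 0.269 CPM in scrambled libraries, with HBG1 and HBA1 at 0. Scrambled library 1 stood apart in that 14.4% of its reads mapped to several places, against 6.36% to 7.34% in the other libraries. The 3 libraries numbered 1 stood apart as well: 14 genes, TCF4 among them, had at least 5 reads in each of these libraries and 0 in the other 6, and 4 genes showed the reverse.

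ALL-SIL expressed 2 of the 3 E protein genes, all 3 ID genes, LYL1 and LDB1, and gave no read of TAL1 or LMO2. To set genes side by side, CPM were divided by the length of each gene's merged exons. With TLX1 siRNA, TCF12 averaged 44.0 ± 1.71 CPM per kilobase (SD, n = 6), TCF3 32.8 ± 4.38, LDB1 30.6 ± 2.24, ID3 28.5 ± 4.35, ID1 15.2 ± 4.05, ID2 2.73 ± 0.804 and LYL1 1.58 ± 0.197. With scrambled siRNA the order was ID3 at 43.4 ± 5.99 CPM per kilobase (SD, n = 3), TCF12 at 37.1 ± 4.53, LDB1 at 36.7 ± 0.823, TCF3 at 33.2 ± 3.70, ID1 at 17.3 ± 2.98, ID2 at 2.98 ± 1.92 and LYL1 at 1.54 ± 0.238. Among scrambled libraries the first 4 of these overlapped their neighbours in the order, as did ID2 and LYL1, while ID1 lay apart from both TCF3 and ID2. ID3 thus stood first of the 10 by mean in scrambled cells and behind TCF12, TCF3 and LDB1 in TLX1 siRNA cells, where its range of 23.2 to 34.5 CPM per kilobase lay wholly below the 42.6 to 46.4 of TCF12. With the length of the longest transcript in place of merged exons, ID3 stayed ahead of TCF12 in scrambled cells, at 62.4 against 57.8 CPM per kilobase. In TLX1 siRNA cells it was then behind TCF12 and TCF3 but ahead of LDB1, at 41.0 against 37.4 CPM per kilobase. LYL1 was then ahead of ID2 in TLX1 siRNA cells, at 3.18 against 2.95 CPM per kilobase.

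**Figure D1:**
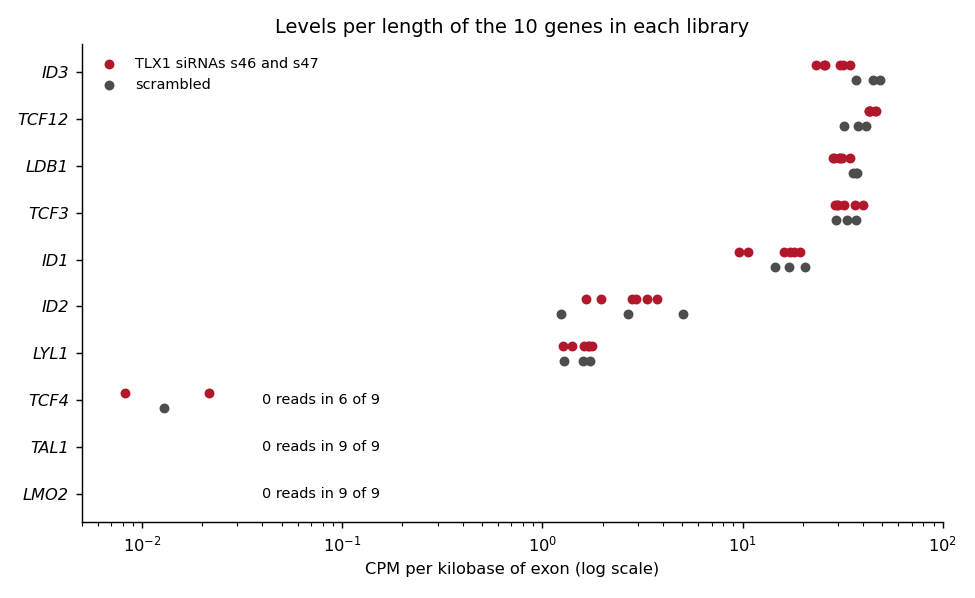
Levels of the 10 genes in CPM per kilobase of merged exons (log axis), 1 point per library, with the 6 TLX1 siRNA libraries in red above the 3 scrambled libraries in grey. TCF12, TCF3, LDB1 and ID3 lie within 23.2 to 48.5, ID2 within 1.24 to 5.05 and LYL1 within 1.27 to 1.78, and TAL1 and LMO2 have 0 reads in 9 of 9 libraries.

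The ID genes differ in the exact DNA words found just before their transcription starts. RefSeq (GRCh38.p14) promoter windows of 300 bases, with 250 bases before the start and 50 after it, were found for 9 of the 10 genes, in 23 windows. The windows were searched on both strands for the E box CANNTG, for the GATA word GATAAG and for the TATA word TATAA, which are set in capitals below, in the 250 bases before the start. They are shown for ID3, which had the lowest p of the 10 genes, for the other 2 ID genes and for LYL1, which had reads where TAL1 had none.
ID3, chr1:23559502-23559751, minus strand: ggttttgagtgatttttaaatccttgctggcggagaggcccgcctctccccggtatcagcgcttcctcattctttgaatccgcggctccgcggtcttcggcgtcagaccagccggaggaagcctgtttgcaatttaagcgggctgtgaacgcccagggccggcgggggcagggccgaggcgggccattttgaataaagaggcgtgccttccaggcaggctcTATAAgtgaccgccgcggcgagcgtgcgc
ID1, chr20:31605039-31605288, plus strand: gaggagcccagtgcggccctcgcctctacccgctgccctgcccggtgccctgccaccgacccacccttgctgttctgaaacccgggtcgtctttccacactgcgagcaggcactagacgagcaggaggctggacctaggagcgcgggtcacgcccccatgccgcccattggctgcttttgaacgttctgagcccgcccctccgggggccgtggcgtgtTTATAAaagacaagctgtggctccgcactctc
ID2, chr2:8681806-8682055, plus strand: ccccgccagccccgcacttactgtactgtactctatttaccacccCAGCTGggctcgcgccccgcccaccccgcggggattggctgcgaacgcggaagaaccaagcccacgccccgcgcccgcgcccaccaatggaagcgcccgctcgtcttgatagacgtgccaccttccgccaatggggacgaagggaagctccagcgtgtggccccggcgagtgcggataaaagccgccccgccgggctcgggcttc
LYL1, chr19:13102859-13103108, minus strand: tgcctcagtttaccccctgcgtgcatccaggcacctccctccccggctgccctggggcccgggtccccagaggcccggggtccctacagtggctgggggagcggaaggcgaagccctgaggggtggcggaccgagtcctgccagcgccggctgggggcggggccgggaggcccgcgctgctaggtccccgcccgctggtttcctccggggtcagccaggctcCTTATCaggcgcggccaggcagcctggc
ID3 has TATAA 29 bases before its start, and ID1 has TATAA 31 bases before it, overlapped by a second match on the other strand. ID2 has no exact TATAA in its window, though its bases near the start hold the close match gataaaa, and it has the E box CAGCTG 205 bases before the start. LYL1 has GATAAG, read here on the other strand as CTTATC, 28 bases before the start and again just after it. The word does not set LYL1 apart from TAL1, which had no reads. A TAL1 window not shown here (from chr1:47232286) holds CTTATC 68 and 36 bases before the start. Of the 35116 RefSeq windows of this length, 20.4% hold TATAA, 68.7% hold CANNTG, 17.9% hold CAGCTG and 6.36% hold GATAAG. Neither the ID3, the ID1 nor the LYL1 window holds the letters CANNTG, which says nothing of where E proteins bind. These matches describe the letters and are no evidence of a bound factor.

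TCF12 encodes HEB, an E protein that acts with the products of TCF3 in developing thymocytes. Its gene (ENSG00000140262.17) lies on the plus strand at chr15:56918623-57299281 (GRCh38). TCF12 had 407, 403 and 434 CPM with s46 and 409, 402 and 438 CPM with s47, against 304, 357 and 389 CPM with scrambled siRNA. All 6 TLX1 siRNA libraries lay above all 3 scrambled libraries, and the lowest value was that of scrambled library 1. Over all genes tested, 4.47% had TLX1 siRNA libraries wholly above the scrambled ones. The log2 fold change of TCF12 was 0.25 ± 0.11 (SE; 95% interval 0.02 to 0.48), and it did not pass the test across all genes (edgeR adjusted p = 0.258). The log2 fold change was 0.16 without scrambled library 1 (edgeR adjusted p = 0.691) and 0.17 without the 3 libraries numbered 1 (0.857).

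TCF3 encodes E12 and E47, splice forms that counts per gene do not separate. The gene (ENSG00000071564.14) lies on the minus strand at chr19:1609290-1652605, and reads it shares with its processed pseudogene TCF3P1 may be missing from its count. TCF3 had 183, 242 and 179 CPM with s46 and 195, 222 and 176 CPM with s47, against 224, 203 and 179 CPM with scrambled siRNA. The groups overlapped throughout. The log2 fold change was -0.02 ± 0.13 (SE; 95% interval -0.29 to 0.26; edgeR adjusted p = 0.955).

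TCF4 encodes E2-2, the E protein that directs plasmacytoid dendritic cells and is also used in B cells. The gene (ENSG00000196628.14) spans chr18:55222331-55664787 on the minus strand. TCF4 had 6, 0 and 0 reads with s46 and 16, 0 and 0 reads with s47, against 8, 0 and 0 reads with scrambled siRNA. Reads were thus seen in every library numbered 1 and in no other, whichever siRNA was used. At 3 reads a library, the limit that a count of 0 allows was 0.0905 to 0.110 CPM in the other 6 libraries, a limit that covers counting error only. No fold change is given for TCF4.

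**Figure D2:**
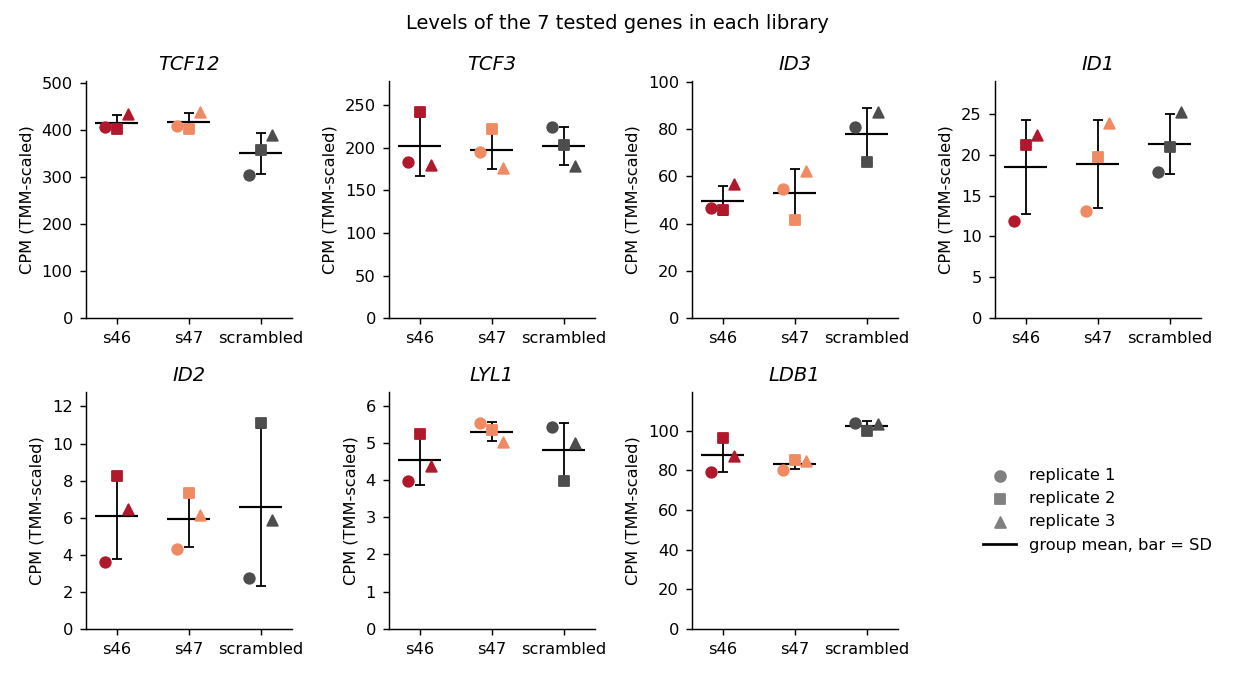
CPM (TMM-scaled, linear axes from 0) of the 7 tested genes in s46, s47 and scrambled libraries, with 1 symbol per library, its shape giving the replicate number, the group mean as a line and the SD as a bar (n = 3). TCF12 is higher, and ID3 and LDB1 are lower, in all 6 TLX1 siRNA libraries than in all 3 scrambled libraries, and the other 4 genes overlap. Over all genes tested, 4.47% are wholly higher and 3.65% wholly lower.

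ID3, an early-response inhibitor of E proteins that is induced by pre-T-cell and T-cell receptor signals, showed the largest difference of the 7 tested genes. The gene (ENSG00000117318.8) lies on the minus strand at chr1:23557918-23559794. ID3 had 46.5, 45.8 and 56.8 CPM with s46 and 54.8, 41.6 and 62.0 CPM with s47, against 80.8, 66.2 and 87.2 CPM with scrambled siRNA. All 6 TLX1 siRNA libraries lay below all 3 scrambled libraries, the nearest pair being s47 library 3 at 62.0 CPM and scrambled library 2 at 66.2 CPM. Over all genes tested, 3.65% had TLX1 siRNA libraries wholly below the scrambled ones.

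ID3 averaged 51.3 ± 7.82 CPM with TLX1 siRNA (SD, n = 6) and 78.1 ± 10.8 CPM with scrambled siRNA (SD, n = 3). The log2 fold change was -0.61 ± 0.14 (SE; 95% interval -0.91 to -0.31), a ratio of 0.656 with bounds of 0.534 and 0.807. ID3 ranked 153rd of 16072 genes by p (unadjusted p = 0.000732 in edgeR) and missed the threshold of 0.05 after adjustment (edgeR adjusted p = 0.0768). Each siRNA alone gave a like value, -0.65 ± 0.16 for s46 (edgeR adjusted p = 0.182) and -0.56 ± 0.16 for s47 (0.270). The difference of s46 from s47 was -0.09 ± 0.16 (95% interval -0.44 to 0.26). The call depended on the method. DESeq2 called ID3 lower at -0.60 (adjusted p = 0.00966), as did edgeR with no filter on low counts (-0.58, 0.00109) and edgeR without scrambled library 2 (-0.71, 0.0204), whereas limma-voom did not (-0.61, 0.0962). Without the 3 libraries numbered 1 the value was -0.57 and the edgeR adjusted p was 0.280.

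ID1 and ID2 are the other ID genes of the blood lineages; ID2 is best known for its part in natural killer and innate lymphoid cells, and ID1 as a target of bone morphogenetic protein signals. ID1 (ENSG00000125968.8, plus strand, chr20:31605283-31606515) had 11.9, 21.2 and 22.4 CPM with s46 and 13.1, 19.8 and 23.8 CPM with s47, against 17.9, 20.9 and 25.2 CPM with scrambled siRNA. ID2 (ENSG00000115738.9, plus strand, chr2:8678845-8684453) had 3.62, 8.27 and 6.45 CPM with s46 and 4.31, 7.35 and 6.15 CPM with s47, against 2.73, 11.1 and 5.87 CPM with scrambled siRNA. Both genes overlapped between the siRNA groups and instead were lowest in the library numbered 1 of each group. Their log2 fold changes were -0.19 ± 0.22 for ID1 (95% interval -0.67 to 0.28; edgeR adjusted p = 0.652) and -0.13 ± 0.38 for ID2 (-0.96 to 0.69; 0.874). The intervals cover ratios of 0.630 to 1.21 for ID1 and 0.515 to 1.61 for ID2, and both thus include the value of ID3. Single libraries turned the direction of ID2: the log2 fold change of ID2 was 0.48 without scrambled library 2 and -0.49 without scrambled library 1. That of ID1 was -0.05 without scrambled library 3 and -0.30 without scrambled library 1.

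The libraries numbered 1 held 11.9 to 17.9 CPM of ID1, against 19.8 to 25.2 CPM in those numbered 2 and 3. For ID2 they held 2.73 to 4.31 CPM, against 5.87 to 11.1 CPM. These were the only 2 of the 7 tested genes that did not overlap between the number 1 libraries and the rest, both lower. Over all genes tested, 4.74% were wholly lower and 4.01% wholly higher in the libraries numbered 1. What the number stands for is not given in the labels.

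TAL1, the founding T-ALL oncogene of this complex (ENSG00000162367.11, minus strand, chr1:47216290-47232220), had 0 sense reads in 9 of 9 libraries. The limit that 0 reads allow is 0.0905 to 0.134 CPM a library. Its upstream neighbour STIL, from whose promoter TAL1 is driven after a recurrent deletion in T-ALL, had 2940, 2802 and 3662 reads with s46 and 3213, 3230 and 3331 with s47, against 3083, 3165 and 3081 with scrambled siRNA. STIL was thus expressed beside a TAL1 without reads, and its log2 fold change was -0.13 (edgeR adjusted p = 0.532).

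LYL1, the TAL1 paralog used in early blood and T-cell progenitors (ENSG00000104903.4, minus strand, chr19:13099033-13103161), had reads in all 9 libraries. It had 3.97, 5.25 and 4.37 CPM with s46 and 5.54, 5.34 and 5.02 CPM with s47, against 5.42, 3.98 and 4.99 CPM with scrambled siRNA, from 104 to 168 reads a library. The groups overlapped. The log2 fold change was 0.03 ± 0.18 (SE; 95% interval -0.35 to 0.41; edgeR adjusted p = 0.937). Per kilobase of merged exons, TCF3, TCF4 and TCF12 together stood 42.4 to 57.6 times above LYL1 in TLX1 siRNA libraries and 39.7 to 55.8 times above it in scrambled libraries. These ratios depend on the length used and are smaller with the longest transcript. The means were then 113 against 3.18 CPM per kilobase with TLX1 siRNA, and 103 against 3.10 with scrambled siRNA.

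LMO2, the LIM-only bridge between TAL1-type dimers and LDB1 (ENSG00000135363.11, minus strand, chr11:33858576-33892289), had 0 sense reads in 9 of 9 libraries. LDB1, the LIM-domain binding protein that joins such complexes at distant sites (ENSG00000198728.10, minus strand, chr10:102107560-102120453), had 79.1, 96.4 and 87.4 CPM with s46 and 80.1, 85.2 and 84.4 CPM with s47, against 104, 99.7 and 103 CPM with scrambled siRNA. All 6 TLX1 siRNA libraries lay below all 3 scrambled ones, whose spread was narrow at 102 ± 2.29 CPM (SD, n = 3). Over all genes tested, 3.65% lay wholly below in the same way. The log2 fold change was -0.26 ± 0.10 (SE; 95% interval -0.47 to -0.06), and it did not pass across all genes (edgeR adjusted p = 0.219). Without the 3 libraries numbered 1 it was -0.20 (edgeR adjusted p = 0.785).

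**Figure D3:**
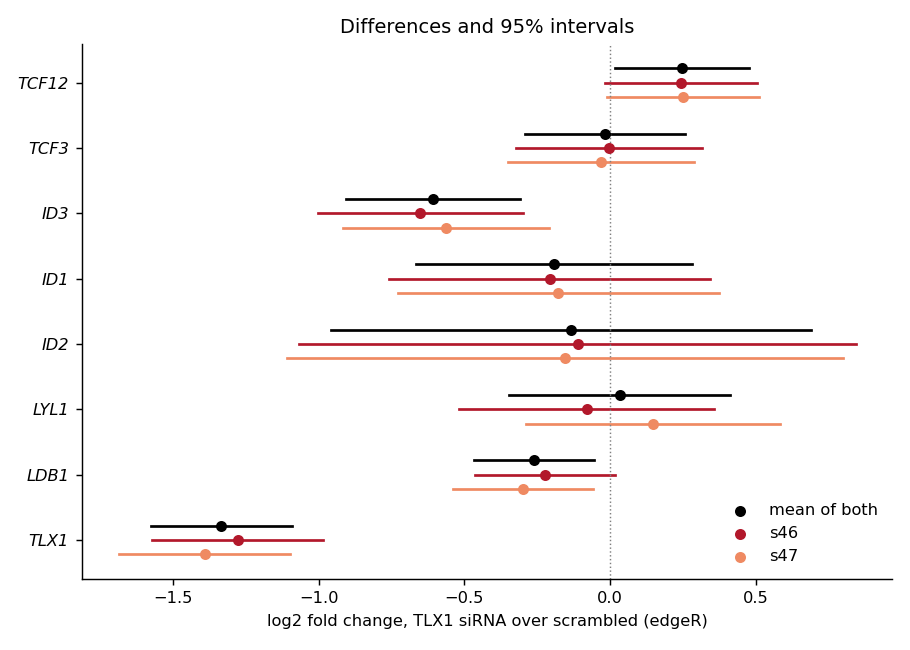
Log2 fold changes (edgeR) with 95% intervals of the 7 tested genes and of TLX1, for the mean of both TLX1 siRNAs, s46 and s47, each over scrambled. ID3 at -0.61 is the farthest of the 7 from 0, against -1.34 for TLX1.

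None of the 7 tested genes passed an adjusted p of 0.05 in edgeR in any of the 4 comparisons. For the mean of both siRNAs against scrambled, 0 of 7 passed, where 0.566% of all genes tested passed in edgeR. In the same comparison 3 (ID3, LDB1 and TCF12) had an unadjusted p under 0.05, as did 17.8% of all genes, while DESeq2 called 1 of the 7 and 458 genes in all, and limma-voom 0 of the 7. With s46 against scrambled, 0 of 7 passed, against 0.174% of all genes, and 1 had an unadjusted p under 0.05, against 11.9% of all genes; DESeq2 called 1 and limma-voom 0. With s47 against scrambled, 0 of 7 passed, against 0.33% of all genes, and 2 had an unadjusted p under 0.05, against 12.3% of all genes; DESeq2 and limma-voom called 0. Between s46 and s47, 0 of 7 passed and 0 had an unadjusted p under 0.05, DESeq2 and limma-voom called 0, and 0% of all genes passed. The intervals for s46 against s47 were widest for ID2, at -0.91 to 1.00, and narrowest for LDB1, at -0.17 to 0.31. As bulk RNA was measured, less RNA per cell and fewer cells with that RNA cannot be told apart for any gene here.

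The E protein and ID levels were also summed per kilobase in each library, as a description with no test. The ID sum was 37.1, 46.4 and 52.7 CPM per kilobase with s46 and 43.1, 42.5 and 56.6 with s47, against 60.7, 58.9 and 71.7 with scrambled siRNA. The E protein sum was 73.2, 82.4 and 75.4 CPM per kilobase with s46 and 75.3, 79.1 and 75.4 with s47, against 69.1, 71.2 and 70.6 with scrambled siRNA. Neither sum overlapped between TLX1 siRNA and scrambled libraries, with the ID sum lower and the E protein sum higher in TLX1 siRNA libraries. Taken singly, only ID3 and TCF12 separated in this way, while ID1, ID2 and TCF3 overlapped. The sums thus restate these single genes. Whether a whole family shifted cannot be told from them, as the intervals of ID1 and ID2 include the value of ID3. Likewise, the interval of TCF3 includes the value of TCF12. No share of other gene sums that separate was computed. The ratio of E protein to ID sum was 1.97, 1.78 and 1.43 with s46 and 1.75, 1.86 and 1.33 with s47, against 1.14, 1.21 and 0.986 with scrambled siRNA, with means of 1.69 ± 0.251 (SD, n = 6) and 1.11 ± 0.114 (SD, n = 3). ID3 made up 61.8% ± 7.03 of the ID sum with TLX1 siRNA and 68.1% ± 5.73 with scrambled siRNA. RNA levels do not give the amounts of the proteins, and the ratio depends on the length used, at 1.95 and 1.25 with the longest transcript.

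**Figure D4:**
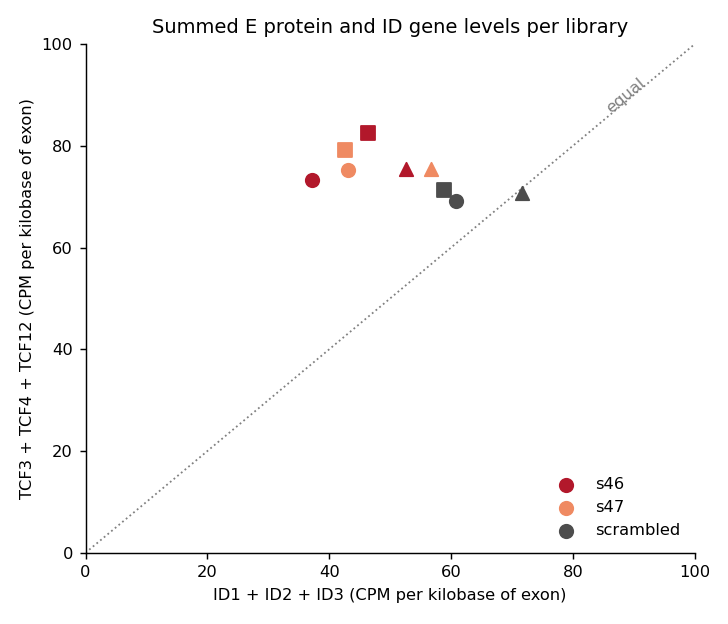
Summed E protein (TCF3, TCF4 and TCF12) against summed ID (ID1, ID2 and ID3) levels in CPM per kilobase, 1 symbol per library, its shape giving the replicate number as in the plot of CPM by library, with a dotted line where both are equal. The 6 TLX1 siRNA libraries lie at ratios of 1.33 to 1.97, and the 3 scrambled libraries at 0.986 to 1.21.

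Reads on the opposite strand bore little on these genes. Of the annotated genes that overlap TCF4, TCF12, TAL1 or LMO2 on the other strand, each had 0 reads in every library, and ID2-AS1, opposite ID2, had at most 6. Reads counted opposite the 7 tested genes were 0.138% of the stranded reads for TCF12, the lowest, and 2.05% for LYL1, the highest.

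TCF12, TCF3 and LDB1 were the 3 members with the highest mean CPM before division by length. Genes whose levels followed theirs were named by Pearson's r of log2 CPM among 11431 genes. The r values are a description over 9 libraries that differ in group, replicate number and depth. For TCF12 the genes were SLC44A1 (r = 0.989), ATF2 (0.978) and ZBED5 (0.978). For TCF3 they were ATP6AP1 (0.975), UBE2D4 (0.974) and ZC3H7B (0.970). For LDB1 they were SLC16A3 (0.977) and MAD1L1 (0.968).

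Among 28 E protein target genes of lymphocyte precursors, 25 were tested, of which 3 rose and 0 fell, where 0.566% of all genes tested passed in either direction. The median log2 fold change was 0.03 beside -0.03 over all genes tested. The list was chosen with earlier results of these data known, so these calls are no independent support. IL7R, the interleukin-7 receptor chain, had 20.8 to 30.3 CPM with TLX1 siRNA and 7.23 to 9.14 CPM with scrambled siRNA, a log2 fold change of 1.54 ± 0.16 (SE; edgeR adjusted p = 0.000842). DNTT, the terminal transferase that adds bases to rearranging receptor genes, had 16.5 to 36.0 CPM with TLX1 siRNA and 7.82 to 11.6 CPM with scrambled siRNA (1.44 ± 0.22; edgeR adjusted p = 0.0118). IGLL1, a surrogate light chain gene, had 9.92 to 21.9 CPM with TLX1 siRNA and 4.52 to 6.54 CPM with scrambled siRNA (1.52 ± 0.23; edgeR adjusted p = 0.0120). Without scrambled library 3, the adjusted p was 0.0669 for DNTT and 0.0830 for IGLL1. The 6 B-lineage markers, which do not include IGLL1, summed to 10.5 to 14.8 CPM in TLX1 siRNA libraries and 11.1 to 13.5 CPM in scrambled libraries. The other tested E protein targets did not pass.

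In edgeR with all 9 libraries, the other 4 lists had no gene past the threshold. DESeq2, with 458 genes called in all, called some of the genes named below. These were SNAI2 (-1.41, DESeq2 adjusted p = 0.00286), SMAD6 (0.56, 0.00619), NFATC2 (-0.78, 0.0398) and GATA3 (-0.74, 0.0493). With no filter on low counts, edgeR called 876 genes in all, among them these and MNT (-0.82, edgeR adjusted p = 0.00352). Of the genes named below, limma-voom called none. Of 31 genes of the TAL1-LMO2 complex, which include the 10 followed here apart from the ID genes, 21 were tested, 0 rose and 0 fell, with a median log2 fold change of -0.13. The largest differences there were CBFA2T3 (ETO2), a corepressor of the complex, at -1.62 ± 0.53 (edgeR adjusted p = 0.213), and the acetyltransferase EP300 at -0.80 ± 0.28 (0.224). Both rested on scrambled library 1: CBFA2T3 had 4.12 to 7.48 CPM in TLX1 siRNA libraries, against 37.4, 5.93 and 6.68 CPM in scrambled libraries, and EP300 had 55.4 to 86.53 CPM, against 198, 67.5 and 94.6 CPM. Without scrambled library 1 the log2 fold changes were -0.23 for CBFA2T3 and -0.23 for EP300. Of 9 target genes of TAL1 in T-ALL, 8 were tested with a median of -0.02, and the largest differences were GATA3 at -0.75 ± 0.24 (edgeR adjusted p = 0.193) and ALDH1A2 at 0.73 ± 0.58 (0.514). GATA3 too was highest in scrambled library 1, with 32.4 to 43.6 CPM in TLX1 siRNA libraries against 100.6, 41.0 and 45.5 CPM in scrambled libraries, and was at -0.23 without it. Without scrambled library 2 ALDH1A2 was at 0.32, and without scrambled library 3 at 1.56. ALDH1A2 stayed at 0.0674 to 0.543 CPM over all 9 libraries.

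Of 20 SMAD, EGR and related genes that act upstream of the ID genes, 15 were tested with a median of -0.14. NFATC2, a factor activated by T-cell receptor signals, was at -0.79 ± 0.24 (edgeR adjusted p = 0.185), and SMAD6, an inhibitor of bone morphogenetic protein signals, at 0.55 ± 0.13 (0.0916). Of 33 other E-box binding and basic helix-loop-helix genes, 18 were tested with a median of 0.03. The repressor SNAI2 was at -1.41 ± 0.29 (edgeR adjusted p = 0.0556) and the MAX partner MNT at -0.85 ± 0.30 (0.213). Without scrambled library 1, NFATC2 was at -0.31 and MNT at -0.23, while SMAD6 at 0.71 (edgeR adjusted p = 0.0109) and SNAI2 at -1.66 (0.0127) passed. Scrambled library 2 weighed on these lists. Without it 8 genes of the TAL1-LMO2 complex, 5 of the other E-box binding genes, and 3 each of the TAL1 targets and the SMAD and EGR genes passed. In that fit 1650 genes passed in all, against 91 with all 9 libraries. CBFA2T3, EP300, GATA3, NFATC2 and MNT, all highest in scrambled library 1, were among the list genes that passed. With scrambled library 1 left out, 1 gene in each of the 4 lists passed, and 109 genes in all.

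**Figure D5:**
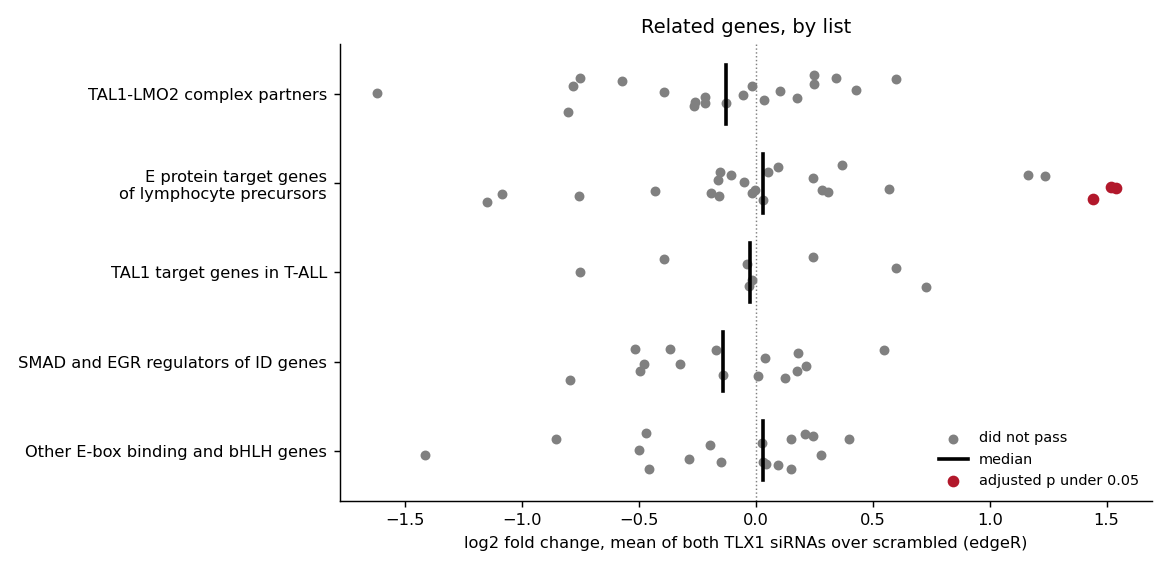
Log2 fold changes (edgeR, mean of both TLX1 siRNAs over scrambled) of the tested genes of 5 lists, 1 point per gene, with the list median as a bar and genes past an adjusted p of 0.05 in red. The 3 red points are IL7R, IGLL1 and DNTT, all among the E protein targets, and the medians lie between -0.14 and 0.03.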

How the data were processed

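Total RNA of ALL-SIL cells was depleted of ribosomal RNA and made into stranded libraries, according to the protocols in the labels. For each library the authors deposited raw counts of reads per gene. The build was GRCh38, per the submitters' processing notes. Neither aligner, counter nor annotation is named (not given in the sources used here). There is 1 unstranded column and 1 per strand. The column that held most gene reads was taken as sense; the other held 5.22% to 6.32% of the stranded reads. The 4 header lines that hold no gene were dropped from library sizes and tests: 4.52% to 6.70% of reads were unmapped, 6.36% to 14.4% multimapping, 23.8% to 36.8% outside genes and 2.12% to 4.44% ambiguous. Multimapping reads are counted for no gene, so genes with close copies can be undercounted.

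IDs were matched to GENCODE 29 (57492 of 58096), which gave symbols, coordinates and exon lengths. Genes were filtered with edgeR's filterByExpr (minimum count 10), scaled by TMM factors and compared in edgeR 4.0.16, run in R 4.3.3 (robust quasi-likelihood F test, group as the only term, all 9 libraries in 1 fit). Benjamini-Hochberg adjustment ran over all 16072 genes, with a threshold of 0.05, and the scripts were tested on simulated data. SEs were derived from the F statistics. Comparisons of each siRNA with scrambled share the scrambled libraries. Alternatives tried were DESeq2 1.42.0, limma-voom (limma 3.58.1), other scalings and filters, unstranded counts, the replicate number as a term, and libraries left out.

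The 10 genes, the 5 gene lists and the markers were chosen with earlier results of these data known, so no list is independent support. Named were TLX1, the 10 genes, up to 4 genes per list past the threshold or otherwise the 2 largest, the 3 genes most like each of the 3 members with the highest mean CPM (mean log2 CPM of at least 1), and opposite-strand neighbours with STIL. A gene that this rule takes is not reported here.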

Additional observations from a re-analysis of the deposited data

How the results depend on the processing

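For the 7 tested genes, 540 values under other settings kept their side of the threshold, and the other 13 were all ID3 gaining a call. For the mean of both siRNAs 1 gene passed (ID3) with DESeq2, with no filter on low counts, with the replicate block, and with the block without the 3 libraries numbered 1 (added after seeing the data); these held for s46, and for s47 except DESeq2. Leaving out each library in turn gave 0 to 1 for the mean and for s46, and ID3 values of -0.71 to -0.52 for the mean, -0.75 to -0.56 for s46 and -0.69 to -0.40 for s47.

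The numbers did not meet the rule for pairing: same-numbered libraries' deviations correlated at -0.03 to 0.436, other pairs at -0.31 to 0.17, though 9 of 9 libraries correlated best with their own number, a hint from the data and not the design. With the replicate block ID3 had -0.61 (edgeR adjusted p = 0.0124; s46 -0.65, 0.0356; s47 -0.57, 0.0425), and the lists had 1 call (TAL1-LMO2 complex), 5 (E protein targets), 1 (TAL1 targets), 1 (SMAD and EGR) and 1 (other E-box genes). Leaving out each library gave 0 to 8, 1 to 5, 0 to 3, 0 to 3 and 0 to 5.

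Genes called overall for the mean, s46 and s47 (91, 28 and 53) were 458, 196 and 203 with DESeq2, 876, 384 and 432 unfiltered, 222, 74 and 125 with the block, and 323, 152 and 237 with the block without number 1. Without number 1 there were 63, 23 and 33, and from only the groups compared 6 for s46 and 8 for s47; library totals gave 14 for s46. Leaving out each library gave 22 to 1650, 4 to 225 and 4 to 275. For s46 against s47 there were 3 unfiltered and 1 with the block without number 1. Higher to lower calls for the mean were 66 to 25, against 253 to 205 with DESeq2, 325 to 551 unfiltered, 49 to 30 with library totals, and 813 to 837 without scrambled library 2.

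With the longest transcript's length, scrambled levels were 45.4 (TCF3), 0.0143 (TCF4), 57.8 (TCF12), 62.4 (ID3), 3.10 (LYL1) and 44.8 (LDB1) CPM per kilobase, and LDB1 was 37.9 with library totals. Sums in TLX1 siRNA and scrambled cells were then 113.4 and 103.2 (E proteins), 59.1 and 83.0 (ID), 3.18 and 3.10 (TAL1 and LYL1), with E to ID ratios of 1.95 and 1.25. The causes of these shifts were not tested beyond the length itself.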
